A study of Mus musculus with 16 samples.

Results

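The liver transcripts of 41 coagulation and complement plasma proteins, out of 55421 gene IDs, were examined in mice with or without the histone chaperone HIRA in hepatocytes, before and after liver regeneration. The members were chosen by gene symbol, with earlier results of these data known, and all 41 passed the filter on low counts. Poly-A RNA had been sequenced from 16 liver samples of male C57BL/6 mice in 4 groups of 4 libraries (both genotypes, control and HIRA KO, at both times). HIRA had been deleted by AAV8 virus under the hepatocyte promoter Tbg, so other liver cells kept the gene. In each HIRA KO group, 2 libraries came from HIRA fl/fl mice given Tbg-Cre and 2 from wildtype mice given saCas9 with a guide against HIRA. In each control group, 2 came from wildtype mice given Tbg-Cre and 2 from wildtype mice given saCas9 with a Rosa26 guide. All mice therefore carried an AAV8 vector with Cre or saCas9. Injection was at 6 months of age, the left lateral and median lobes were resected 4 weeks later (before), and the remaining liver was taken 5 days after that (after). The lobe, the way of collection and the time thus changed together and cannot be told apart. The file columns name genotype, time and a running number from 1 to 4, which is used here only as a name, and do not show which deletion approach a library came from.

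Hepatocytes make most of the circulating clotting and complement proteins and secrete them into plasma. In coagulation, the contact factors and the vitamin K-dependent proteases activate each other in turn until thrombin cleaves fibrinogen into fibrin, which plasmin later dissolves. In complement, the classical and lectin pathways cleave C4 and C2, the alternative pathway works through factor B, all of them converge on C3, and the terminal proteins C5 to C9 form the membrane attack complex. Many of these genes respond to interleukin 6 during the acute phase response, and in a liver that has lost tissue the remaining part has to supply the plasma.

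Hira itself, the label check, was at 5.21 to 6.18 CPM (counts scaled to library size, with TMM factors) in control and 3.13 to 4.38 CPM in HIRA KO before regeneration, and at 4.99 to 6.29 and 3.04 to 4.56 CPM after it. HIRA KO libraries lay below all controls at both times, but the log2 differences of -0.70 ± 0.170 (SE) and -0.69 ± 0.169 were not called by edgeR (adjusted p 0.129 and 0.0666, unadjusted 0.000641 and 0.000680). DESeq2 called Hira lower at both times. Counts were taken over the whole gene, so transcripts with the deletion and transcripts of other liver cells were not separated. Total counts ran from 15103059 to 21738619 per library. HIRA KO libraries 1 and 2 of both times stood apart from the other 12 libraries on the second principal component computed without the members (-47.3 to -36.2 against -1.06 or more). By the rule used, only HIRA KO libraries below every control on this component could be flagged. Leaving them out thus removed the HIRA KO libraries farthest from control on it, and is not a neutral check. Without these 4 libraries, 8 of 41 members turned sign in HIRA KO against control before regeneration and 10 of 41 after it, and values without them are given beside the results for the members. Before regeneration the stellate cell and fibroblast markers (8 genes, none at 0) summed to 217 to 244 CPM in control. In HIRA KO they summed to 248 to 655 CPM, with 655 and 477 CPM in libraries 1 and 2. Of the 8, 0 were called by edgeR (5 at an unadjusted p under 0.05, against 13.2% of all genes) and 1 by DESeq2. The Kupffer cell and macrophage markers (9 genes, none at 0) summed to 172 to 458 and 228 to 265 CPM before, and to 801 to 1020 and 777 to 1210 CPM after, and 9 of 9 rose in both genotypes. Hepatocyte markers (10 genes) summed to 122000 to 137000 CPM in control and 138000 to 176000 CPM in HIRA KO before regeneration, without overlap and mostly from Alb. Alb was at 78800 to 91200 and 95600 to 135000 CPM, and of the 10 log2 differences 4 were positive and 6 negative. After regeneration the sums were 117000 to 168000 and 126000 to 155000 CPM. With regeneration 3 of the 10 fell in each genotype, Tat and Tdo2 in both, Apoe in control and Ttr in HIRA KO. Over all genes 6.04% rose and 4.17% fell in control, and 6.48% rose and 5.53% fell in HIRA KO. In HIRA KO against control edgeR called 0 of the 10 hepatocyte markers. At an unadjusted p under 0.05 there were 4 before regeneration and 0 after, against 13.2% and 15.8% of all genes. DESeq2 called Apoa1 and Serpina1a lower before regeneration. The part of these cells in the results was not tested. In bulk tissue, fewer cells of a type and less RNA per cell cannot be told apart.

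Together the members took 5.31% to 6.51% of all counts in control and 5.02% to 7.1% in HIRA KO before regeneration, and 7.27% to 10.3% and 7.57% to 10.5% after it. In every library the share after regeneration was above every share before it. Levels of different genes were compared with the deposited FPKM values, which are scaled by transcript length. In control livers before regeneration, mean FPKM ran from 15.7 for Pros1 (protein S, a cofactor of protein C) to 3700 ± 453 (SD, n = 4) for Ahsg (fetuin A, a plasma carrier and calcification inhibitor), with a median of 248. Behind Ahsg came Hpx (hemopexin, which binds heme) at 2510 ± 771, Fga at 2130 ± 296, Ambp (precursor of alpha-1-microglobulin and bikunin) at 1840 ± 137 and Fgg at 1660 ± 211 FPKM. Fgb, the third fibrinogen chain, stood at 928 ± 119 FPKM. C3, the central complement protein, was at 1120 ± 169 FPKM and prothrombin (F2) at 761 ± 37.8 FPKM. The least abundant were Pros1, F11 (29.2 ± 12.2 FPKM), Masp1 (29.6 ± 3.41 FPKM) and F7 (48.0 ± 6.03 FPKM). In this order, the ranges of 35 of 38 neighbouring pairs overlapped, so neighbours mostly could not be ranked. The order holds 39 members, since C2 and Cfb had empty FPKM cells in 6 libraries each.

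**Figure D1:**
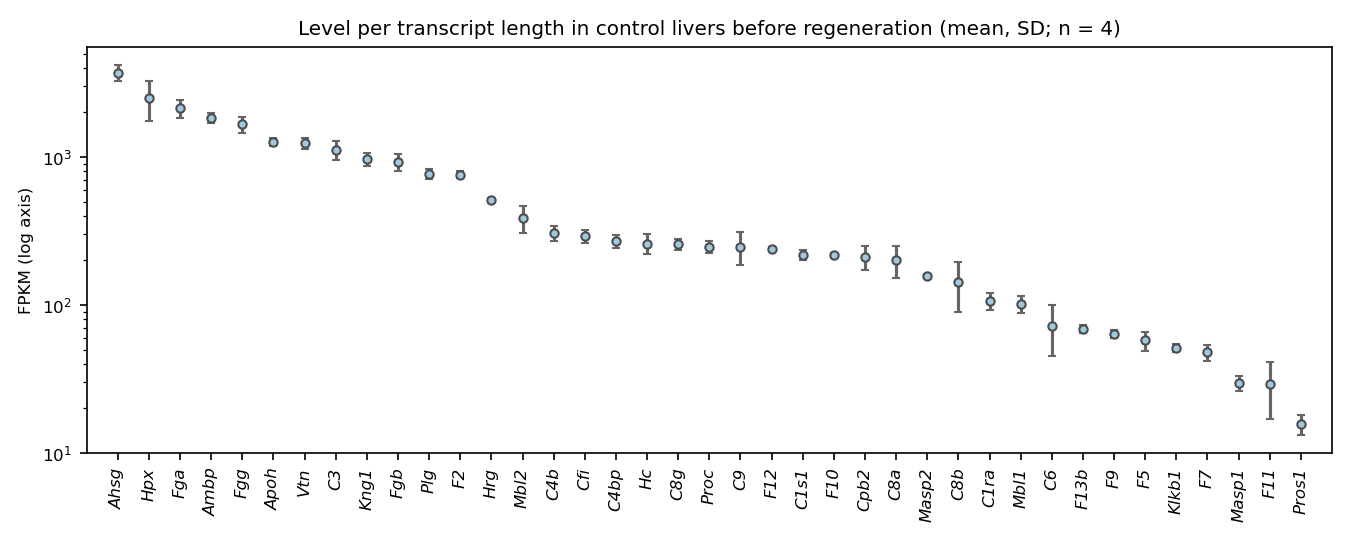
FPKM of 39 members in the 4 control libraries before regeneration on a log axis, ordered by mean, with points for means and bars for SD. Levels span from 15.7 FPKM for Pros1 to 3700 FPKM for Ahsg.

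Several members lie side by side in the mouse genome (GRCm38, mm10). Fgg, Fga and Fgb, the 3 fibrinogen chains, sit within chromosome 3 from 83007724 to 83049863, with Fgb on the opposite strand from the others. C8b (chromosome 4, 104766317 to 104804548, plus strand) and C8a (104815679 to 104876398, minus strand) are neighbours, and C2 and Cfb adjoin on chromosome 17. Some counts are uncertain. The read-through gene Gm20547 shares 79.5% of the exon bases of Cfb and 42.8% of those of C2 on the same strand, and Gm45753 shares 43.2% of those of Klkb1. Tardbp covers 54.9% of the exon bases of Masp2 on the opposite strand. Near-identical copies exist for C4b, C1ra, C1s1 and Kng1, and how reads shared with them were counted is not given in the sources used here.

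The bases just before the start sites of the fibrinogen genes and of Hpx are shown because the 3 fibrinogen chains, which form 1 protein, are followed throughout and Hpx rose most with regeneration. They are from RefSeq on GRCm38.p6, 5′ to 3′ on the strand of the gene, and cover up to 250 bases before the RefSeq start. Bases that GENCODE M21 places inside the gene (77 for Fga and 21 for Hpx) were left off. Capitals mark matches, on either strand, to TTGCNNAA (a C/EBP motif) or CTGGGAA (an interleukin 6 response element). The motifs do not overlap each other in the sequences shown.
Fgg (chr3:83007474-83007723, plus strand): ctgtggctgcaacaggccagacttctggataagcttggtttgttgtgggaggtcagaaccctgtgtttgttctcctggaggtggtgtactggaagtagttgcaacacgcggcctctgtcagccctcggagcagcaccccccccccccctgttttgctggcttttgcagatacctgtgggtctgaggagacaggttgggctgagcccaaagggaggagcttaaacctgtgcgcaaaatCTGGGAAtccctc
Fga (chr3:83025903-83026075, plus strand): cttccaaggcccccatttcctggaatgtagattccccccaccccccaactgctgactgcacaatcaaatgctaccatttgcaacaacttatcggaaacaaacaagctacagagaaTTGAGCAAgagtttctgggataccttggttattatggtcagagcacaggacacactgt
Fgb (chr3:83049864-83050113, minus strand): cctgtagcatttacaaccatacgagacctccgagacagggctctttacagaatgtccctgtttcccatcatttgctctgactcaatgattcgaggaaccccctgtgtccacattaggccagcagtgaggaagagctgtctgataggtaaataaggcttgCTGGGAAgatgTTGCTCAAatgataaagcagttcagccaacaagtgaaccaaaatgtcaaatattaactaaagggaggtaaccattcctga
Hpx (chr7:105600138-105600366, minus strand): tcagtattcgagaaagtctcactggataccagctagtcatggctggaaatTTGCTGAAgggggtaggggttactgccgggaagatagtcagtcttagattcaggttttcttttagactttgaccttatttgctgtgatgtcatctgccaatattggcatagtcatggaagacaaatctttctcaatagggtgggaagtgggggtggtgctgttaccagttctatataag

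Fgb held both motifs, with CTGGGAA at bases 91 to 85 and the C/EBP motif at 80 to 73, counted back from the end of the printed sequence, as are all positions here. Fga held the C/EBP motif at bases 58 to 51. Fgg held only CTGGGAA, at bases 13 to 7, and Hpx only the C/EBP motif, at 179 to 172. Of the 33 members with an entry in the promoter table, 11 held TTGCNNAA (33.3%), against 9.56% of all 32851 promoters. CTGGGAA was found in 5 (15.2%, against 9.1%). The members were counted by gene and the background by promoter, so the units differ. The members had 35 promoters, of which 11 held TTGCNNAA and 5 held CTGGGAA. A match is a run of letters and not a measured binding site.

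The first question was whether HIRA loss altered these transcripts in the resting liver. Before regeneration, edgeR called 0 of 41 members at an adjusted p under 0.05, against 0.0348% of the 23018 genes tested called higher and 0.00434% called lower in HIRA KO. DESeq2 also called 0. At an unadjusted p under 0.05, 7 members were lower and 2 higher, where 5.95% of all genes were lower and 7.22% higher. Of the 41 log2 fold changes, 28 were negative, with a median of -0.19 against 0.01 over all genes. In 7 members (Klkb1, Fga, Fgb, C1ra, C1s1, C8b and C8g) every HIRA KO library lay below every control library, against 4.53% of all genes. In 0 members every HIRA KO library lay above every control library, against 3.54% of all genes.

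After regeneration, edgeR again called 0 of 41 members, against 0.2% of genes called higher and 0.291% called lower, and the smallest adjusted p of a member was 0.086, for Masp1. At an unadjusted p under 0.05, 14 members were lower (8.02% of all genes) and 1 was higher (7.75%). DESeq2 called 6 members, all lower in HIRA KO (F5, Masp1, Fga, C8a, Plg and Fgg), against 2.73% of the genes it tested. Negative values again prevailed, at 30 of 41, with a median log2 fold change of -0.25 against 0.02 over all genes. The groups did not overlap for F5 and Masp1, both lower (4.45% of all genes), and for 0 members in the other direction (3.65%). Without the 4 libraries that stood apart, the median was -0.20 before and -0.14 after regeneration, with 32 of 41 values negative at each time and 0 members called.

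**Figure D2:**
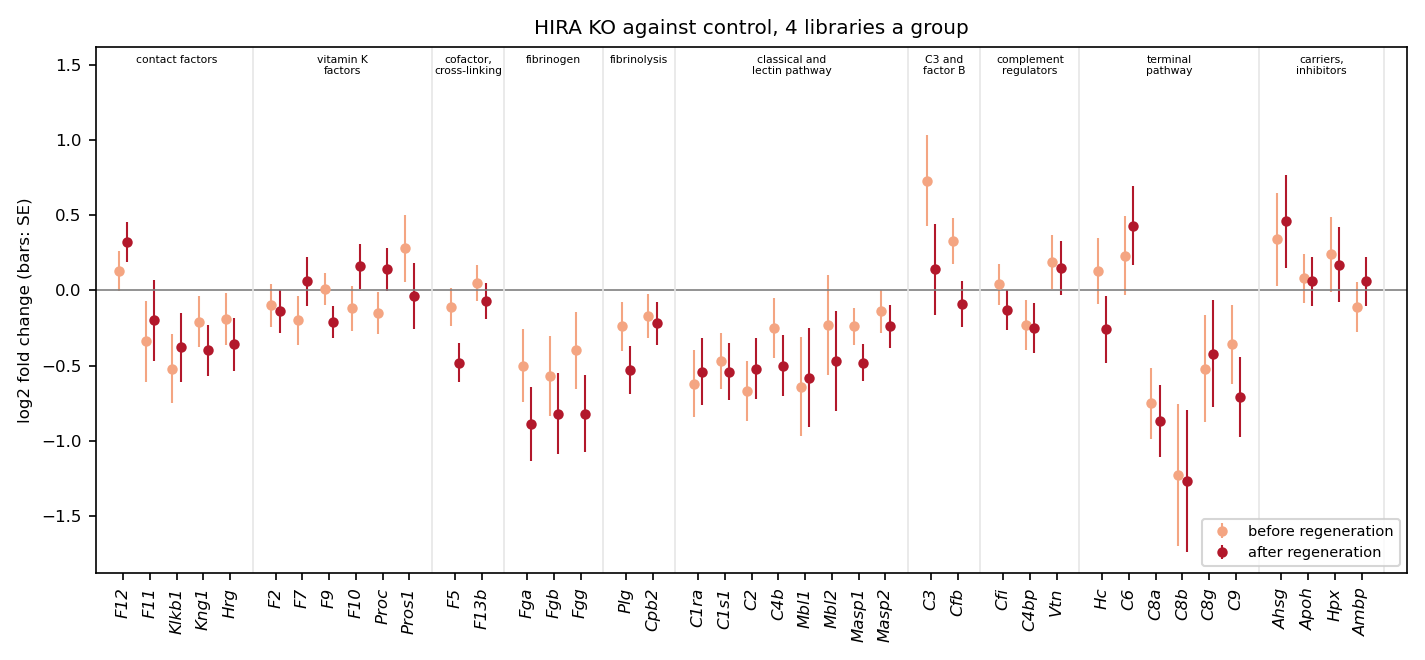
Log2 fold change of HIRA KO against control for the 41 members by role, before (light) and after (dark) regeneration, with bars for SE from 4 libraries a group. All 8 members of the classical and lectin pathway and all 3 fibrinogen chains are below 0 at both times, and edgeR called no member.

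Fibrinogen is the substrate of the clot and a classical acute phase protein. Before regeneration Fga was at 4410, 6100, 5990 and 5700 CPM in control libraries 1 to 4 and at 3590, 3480, 4340 and 4330 CPM in HIRA KO. Each HIRA KO library was below the lowest control, at 0.709 of the control level (log2 -0.50 ± 0.246, adjusted p 0.401 by edgeR). Fgb was at 3790, 5270, 4860 and 4690 CPM against 2750, 2880, 3380 and 3520 CPM (log2 -0.57 ± 0.266, adjusted p 0.371), again without overlap. Fgg was at 2930, 4060, 3710 and 3760 CPM against 2320, 2610, 3010 and 3020 CPM, where control library 1 fell within the HIRA KO range (log2 -0.40 ± 0.256, adjusted p 0.527).

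After regeneration the fibrinogen differences were larger in size, though the interaction test described further on did not call this, and the groups overlapped. Fga was at 9630, 7720, 8980 and 4800 CPM in control and at 3930, 2330, 5080 and 5500 CPM in HIRA KO (log2 -0.89 ± 0.248, adjusted p 0.0986). Control library 4 lay well below the other controls, and HIRA KO library 2 was the lowest of all. Fgb (8510, 6630, 7290 and 3780 against 3500, 1860, 4530 and 4950 CPM) and Fgg (6740, 5200, 5630 and 2910 against 2600, 1630, 3430 and 3960 CPM) had the same 2 libraries at the low ends. Their log2 differences were -0.82 ± 0.267 and -0.82 ± 0.258, with adjusted p 0.146 and 0.133. Without the libraries that stood apart, the values were -0.54 for Fga, -0.45 for Fgb and -0.45 for Fgg after regeneration, and -0.36, -0.43 and -0.26 before it. The chains kept nearly fixed proportions, with a ratio of Fga to Fgg CPM between 1.33 and 1.65 and of Fgb to Fgg between 1.1 and 1.35 over all 16 libraries.

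The classical and lectin pathway members start complement on antibody complexes and microbial sugars. All 8 had negative log2 differences at both times (median -0.36 before and -0.51 after). Without the libraries that stood apart, 6 were negative before and 7 after, with a median of -0.24 at each time, and Mbl2 was positive at both times (0.17 and 0.06). By edgeR 0 were called, with 3 and 5 at an unadjusted p under 0.05, and DESeq2 called 1, Masp1 after regeneration. C1ra and C1s1, the proteases of the C1 complex, did not overlap between groups before regeneration. C1ra was at 285, 310, 328 and 245 CPM in control and 167, 156, 212 and 225 CPM in HIRA KO (log2 -0.62 ± 0.226, adjusted p 0.273). After regeneration it was at 354, 293, 285 and 230 CPM against 115, 167, 217 and 302 CPM (log2 -0.54 ± 0.226, adjusted p 0.255), with HIRA KO library 4 inside the control range. C1ra differed by -0.42 before and -0.15 after without the libraries that stood apart. C1s1 differed by -0.47 ± 0.187 before and -0.54 ± 0.187 after, and by -0.22 and -0.34 without those libraries. C2, which with C4 forms the convertase, was at 74.0, 96.7, 79.6 and 47.2 CPM in control and 47.8, 47.1, 47.5 and 44.3 CPM in HIRA KO before regeneration (log2 -0.67 ± 0.201, adjusted p 0.197, the smallest of the members at that time). Control library 4 lay among the HIRA KO values.

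Mbl1, a mannose-binding lectin, was lowest in HIRA KO libraries 1 and 2. Before regeneration it was at 72.6 and 73.0 CPM in these and at 143 and 124 CPM in libraries 3 and 4, against 136 to 186 CPM in control, so library 4 also lay below all controls. After regeneration these were 54.8 and 60.2, then 137 and 171 CPM, against 141 to 186 CPM, and library 3 also lay below all controls. The log2 difference of -0.64 before became -0.26 without the libraries that stood apart, and -0.58 after became -0.02. Masp1, a protease of the lectin pathway, showed less dependence on them. After regeneration it was at 199, 230, 181 and 158 CPM in control and 127, 144, 134 and 147 CPM in HIRA KO, without overlap (log2 -0.48 ± 0.126, adjusted p 0.086 by edgeR and 0.00878 by DESeq2). Without those libraries the difference was -0.43. Before regeneration Masp1 differed by -0.24 ± 0.126, and the groups overlapped.

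In the terminal pathway, the 3 genes of C8, which inserts into the target membrane, were all lower in mean. C8b had the largest difference of the 41 members at both times. It was at 410, 563, 466 and 218 CPM in control and 150, 150, 212 and 194 CPM in HIRA KO before regeneration, so the groups were apart only narrowly (log2 -1.23 ± 0.472, adjusted p 0.305). After regeneration it was at 367, 475, 254 and 147 CPM against 51.9, 67.4, 151 and 245 CPM (log2 -1.27 ± 0.473, adjusted p 0.209), with overlap. C8a, its neighbour, was at 869, 1060, 1100 and 625 CPM against 423, 464, 714 and 566 CPM before (log2 -0.75 ± 0.236, adjusted p 0.214). After regeneration the values were 1020, 1020, 980 and 604 CPM against 388, 372, 572 and 655 CPM (log2 -0.87 ± 0.237, adjusted p 0.0903 by edgeR and 0.0168 by DESeq2). In both genes control library 4 was the lowest control at both times.

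Without the libraries that stood apart, C8b differed by -1.03 before and -0.63 after, and C8a by -0.51 and -0.55. C8g, on chromosome 2, was at 302, 327, 300 and 354 CPM in control and 196, 167, 265 and 264 CPM in HIRA KO before (log2 -0.52 ± 0.358, and -0.27 without those libraries). After regeneration HIRA KO libraries 1 and 2 were at 60.0 and 87.9 CPM and libraries 3 and 4 at 213 and 282 CPM, against 191 to 258 CPM in control, and the log2 difference of -0.42 became 0.22 without the libraries that stood apart. C9, the pore-forming protein, differed by -0.36 ± 0.266 before and -0.71 ± 0.267 after, and by -0.61 and -0.28 without those libraries. C6 had positive values (0.23 ± 0.263 and 0.43 ± 0.263). After regeneration it was at 191, 299, 210 and 115 CPM in control and 294, 303, 213 and 286 CPM in HIRA KO, with overlap. Hc, which encodes C5, differed by 0.13 before and -0.26 after, and by -0.24 and -0.27 without those libraries. None of these 3 was called by edgeR or DESeq2.

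C3 had the largest positive difference before regeneration. It was at 7290, 6470, 9400 and 7100 CPM in control, and at 17100 and 16400 CPM in HIRA KO libraries 1 and 2 but 9040 and 7650 CPM in libraries 3 and 4. The log2 difference was 0.73 ± 0.302 (adjusted p 0.321), and 0.14 without the libraries that stood apart. After regeneration C3 was at 20900, 14300, 16700 and 13300 CPM in control and 27800, 20900, 11300 and 12100 CPM in HIRA KO, so libraries 1 and 2 were again the high ones (log2 0.14 ± 0.301). Without them the value was -0.46. Ahsg showed a like division. It was at 11400 and 10600 CPM in HIRA KO libraries 1 and 2 and 5210 and 5900 CPM in 3 and 4 before, against 5570 to 7020 CPM in control, and at 12700, 16000, 6440 and 7200 CPM after, against 10800, 7730, 7010 and 5180 CPM in control. Its log2 differences of 0.34 and 0.46 became -0.23 and -0.15 without the libraries that stood apart. Pros1 was at 110, 107, 52.8 and 52.9 CPM in HIRA KO before regeneration, against 56.5 to 73.3 CPM in control, and its log2 difference of 0.28 became -0.32. Cfb, the protease of the alternative pathway, differed by 0.33 ± 0.151 before and -0.09 ± 0.151 after. Before regeneration it was at 167, 222, 227 and 166 CPM in control and 256, 271, 237 and 216 CPM in HIRA KO, with overlap, and the difference was 0.21 without the libraries that stood apart. After regeneration it was at 323, 218, 305 and 231 CPM against 246, 282, 225 and 260 CPM.

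**Figure D3:**
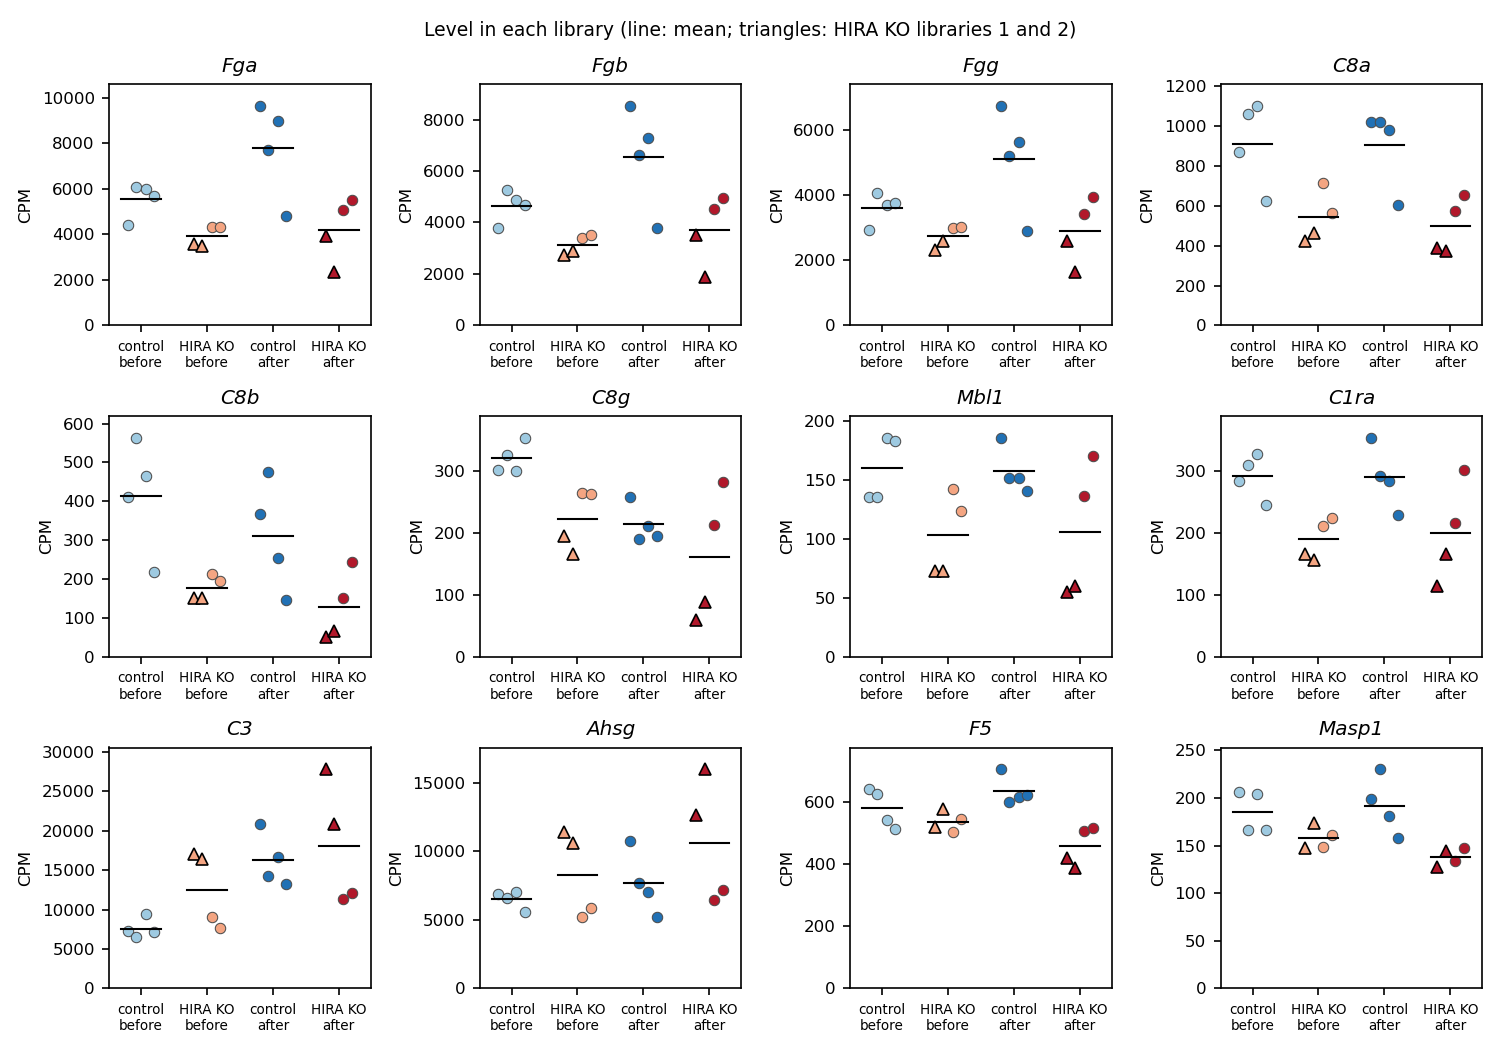
CPM in each library (points) with the group mean (line) for 12 members, where triangles are HIRA KO libraries 1 and 2. Triangles are the highest HIRA KO points for C3 and Ahsg and the lowest for Mbl1, C8g and C8a, and the F5 and Masp1 groups do not overlap after regeneration.

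Among the other coagulation members, F5, the cofactor of factor Xa, separated the groups after regeneration. It was at 705, 601, 616 and 624 CPM in control and 421, 386, 506 and 515 CPM in HIRA KO (log2 -0.48 ± 0.128, adjusted p 0.0875 by edgeR and 0.00385 by DESeq2), and the difference was -0.30 without the libraries that stood apart. Before regeneration F5 was at 643, 626, 541 and 513 CPM in control and 520, 579, 503 and 544 CPM in HIRA KO (log2 -0.11 ± 0.128). Plg, the precursor of plasmin, was at 3260, 2500, 2580 and 2070 CPM against 1550, 1610, 1960 and 2090 CPM after regeneration (log2 -0.53 ± 0.162, adjusted p 0.123), and the difference was -0.24 ± 0.162 before. The respective values were -0.34 and -0.10 without the libraries that stood apart. Klkb1, which encodes prekallikrein, was at 204, 191, 208 and 202 CPM in control and 104, 111, 167 and 181 CPM in HIRA KO before regeneration (log2 -0.52 ± 0.232, adjusted p 0.354), without overlap, and the difference was -0.21 without the libraries that stood apart. F12, which starts the contact pathway, had the smallest p among higher members after regeneration (log2 0.32 ± 0.134, adjusted p 0.252), at 645, 520, 546 and 457 CPM in control and 677, 807, 558 and 665 CPM in HIRA KO, with overlap, and 0.19 without those libraries.

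The 6 vitamin K-dependent members, whose enzymes need gamma-carboxylation to bind membranes, lay near 0. Their medians were -0.11 before and 0.01 after regeneration, and their range was -0.21 to 0.28 over both times. The medians were -0.20 and -0.09 without the libraries that stood apart. F9 differed by 0.01 ± 0.109 before and -0.21 ± 0.109 after, and F2 by -0.10 ± 0.144 and -0.14 ± 0.144. Hpx (0.24 and 0.17), Ambp (-0.11 and 0.06), Apoh (0.08 and 0.06), Vtn (0.19 and 0.15), Cfi (0.04 and -0.13), C4bp (-0.23 and -0.25) and F13b (0.05 and -0.07) also gave no call in HIRA KO against control by edgeR or DESeq2. Without the libraries that stood apart these 7 lay between -0.30 (Ambp before) and 0.21 (Apoh after).

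The next comparison addressed regeneration itself, after against before within each genotype. In control livers edgeR called 6 of 41 members higher, against 6.04% of all genes, and 2 lower, against 4.17%. In HIRA KO livers it called 3 higher (Hpx, Ambp and C4bp), against 6.48% of all genes, and 0 lower, against 5.53%. At an unadjusted p under 0.05, 11 members were higher (12.7% of all genes) and 3 lower (10.9%) in control, and 5 higher (14.2%) and 3 lower (13.2%) in HIRA KO, where DESeq2 called 3 members lower (Apoh, Klkb1 and Masp2), against 10.2% of the genes it tested. The libraries of control did not overlap in time for 6 higher (10% of all genes) and 3 lower members (8.98%), and those of HIRA KO for 4 higher (8.61%) and 2 lower (7.45%). The medians over members were 0.05 in control and 0.06 in HIRA KO, beside 0.00 and 0.02 over all genes.

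Hpx rose most in both genotypes. In control it was at 3740, 4160, 7010 and 3870 CPM before and 17500, 11700, 13800 and 11600 CPM after (log2 1.54 ± 0.256, adjusted p 0.00131). In HIRA KO it was at 8030, 5910, 4570 and 3710 CPM before and 18800, 15100, 13500 and 14000 CPM after (log2 1.47 ± 0.255, adjusted p 0.00165). Every library after was above every library before. The fold was 2.90 in control and 2.76 in HIRA KO, and the call was kept in each of the 8 fits per genotype that left out 1 library.

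C4bp, an inhibitor that binds C4b, and Ambp also rose in both genotypes. C4bp went from 600, 686, 801 and 728 CPM to 1210, 1050, 1090 and 1130 CPM in control (log2 0.67 ± 0.169, adjusted p 0.0160), and the call was lost only without control library 1 before (adjusted p 0.0589). In HIRA KO it went from 475, 550, 693 and 687 CPM to 789, 742, 1210 and 1020 CPM (log2 0.65 ± 0.169, adjusted p 0.0190), again without overlap. Ambp went from 2760, 2880, 3170 and 2640 CPM to 4940, 3760, 4440 and 3370 CPM in control (log2 0.53 ± 0.165, adjusted p 0.0496) and from 3220, 2770, 2400 and 2240 CPM to 4690, 4830, 3570 and 4100 CPM in HIRA KO (log2 0.69 ± 0.165, adjusted p 0.0117). The Ambp call in control was kept in 1 of 8 fits without 1 library (adjusted p 0.0465 to 0.134), whereas that in HIRA KO was kept in 8 of 8. The C4bp call in HIRA KO was kept in 6 of 8, and lost without library 2 before or library 3 after.

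C3 rose in control from 6470 to 9400 CPM before to 13300 to 20900 CPM after (log2 1.11 ± 0.304, adjusted p 0.0257), without overlap. In HIRA KO its value was 0.52 ± 0.301 (adjusted p 0.282), and the libraries, at 7650 to 17100 CPM before and 11300 to 27800 CPM after, overlapped. Pros1 rose in control from 67.6, 73.3, 67.5 and 56.5 CPM to 137, 107, 130 and 104 CPM (log2 0.85 ± 0.222, adjusted p 0.0209). In HIRA KO the Pros1 difference was 0.53 ± 0.221 (adjusted p 0.129), and 0.92 without the libraries that stood apart, where it was called. Cpb2, which encodes the fibrinolysis inhibitor TAFI, rose in control from 335, 370, 525 and 375 CPM to 612, 540, 620 and 455 CPM (log2 0.47 ± 0.146, adjusted p 0.0466), with overlap because control library 3 before was above library 4 after. In HIRA KO the Cpb2 value was 0.42 ± 0.146 (adjusted p 0.0674 by edgeR), and DESeq2 called Cpb2 higher. It went from 360, 370, 346 and 350 CPM to 466, 437, 461 and 546 CPM there, without overlap.

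The 2 members that fell in control were Klkb1 and Proc. Klkb1 went from 204, 191, 208 and 202 CPM to 151, 97.8, 107 and 89.1 CPM (log2 -0.86 ± 0.233, adjusted p 0.0258). In HIRA KO it was at 104, 111, 167 and 181 CPM before and 53.4, 110, 69.8 and 109 CPM after (log2 -0.72 ± 0.233, adjusted p 0.0542, and called at -0.95 without the libraries that stood apart), and libraries 2 and 4 after lay within the range before. Proc, which encodes the anticoagulant protein C, went from 477, 480, 445 and 429 CPM to 400, 287, 313 and 287 CPM in control (log2 -0.51 ± 0.141, adjusted p 0.0271). In HIRA KO the Proc libraries overlapped, at 434, 425, 395 and 398 CPM before and 301, 422, 296 and 398 CPM after (log2 -0.22 ± 0.141, adjusted p 0.338).

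In control, of the 8 fits without 1 library, the Pros1 call was kept in 4, the C3 call in 3, and the Cpb2, Klkb1 and Proc calls in 2 each, with adjusted p no higher than 0.144 in any of them. Without control library 1 before regeneration only Hpx was called.

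**Figure D4:**
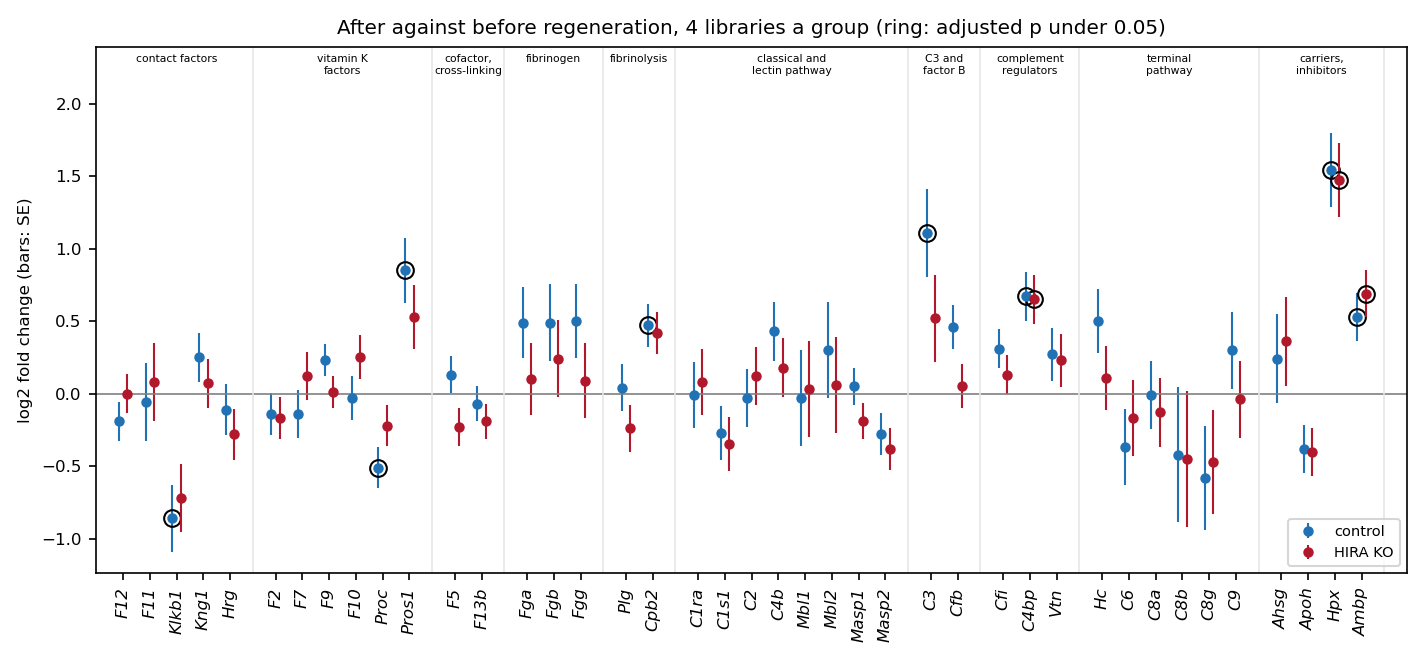
Log2 fold change after against before regeneration for the 41 members by role in control (blue) and HIRA KO (red), with bars for SE and rings for adjusted p under 0.05. Rings mark 8 members in control and 3 in HIRA KO, with Hpx highest in both.

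Fibrinogen gave no call with regeneration. In control, Fga, Fgb and Fgg had log2 differences of 0.49 ± 0.246, 0.49 ± 0.266 and 0.50 ± 0.257 (adjusted p 0.246, 0.281 and 0.251), where libraries 1 to 3 after lay above all libraries before and library 4 did not. In HIRA KO the same genes gave 0.10 ± 0.246, 0.24 ± 0.266 and 0.09 ± 0.256 (adjusted p 0.848, 0.609 and 0.875), and 0.30, 0.47 and 0.31 without the libraries that stood apart. Of the terminal members edgeR called 0 of 6 in either genotype (1 and 0 at an unadjusted p under 0.05), and of the classical and lectin pathway 0 of 8 (1 and 1). Apoh, a phospholipid-binding plasma protein, had negative values in both genotypes (-0.38 ± 0.165 and -0.40 ± 0.165) without a call by edgeR, and in HIRA KO, where DESeq2 called it lower, every library after lay below every library before. Its value in HIRA KO was -0.24 without the libraries that stood apart.

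**Figure D5:**
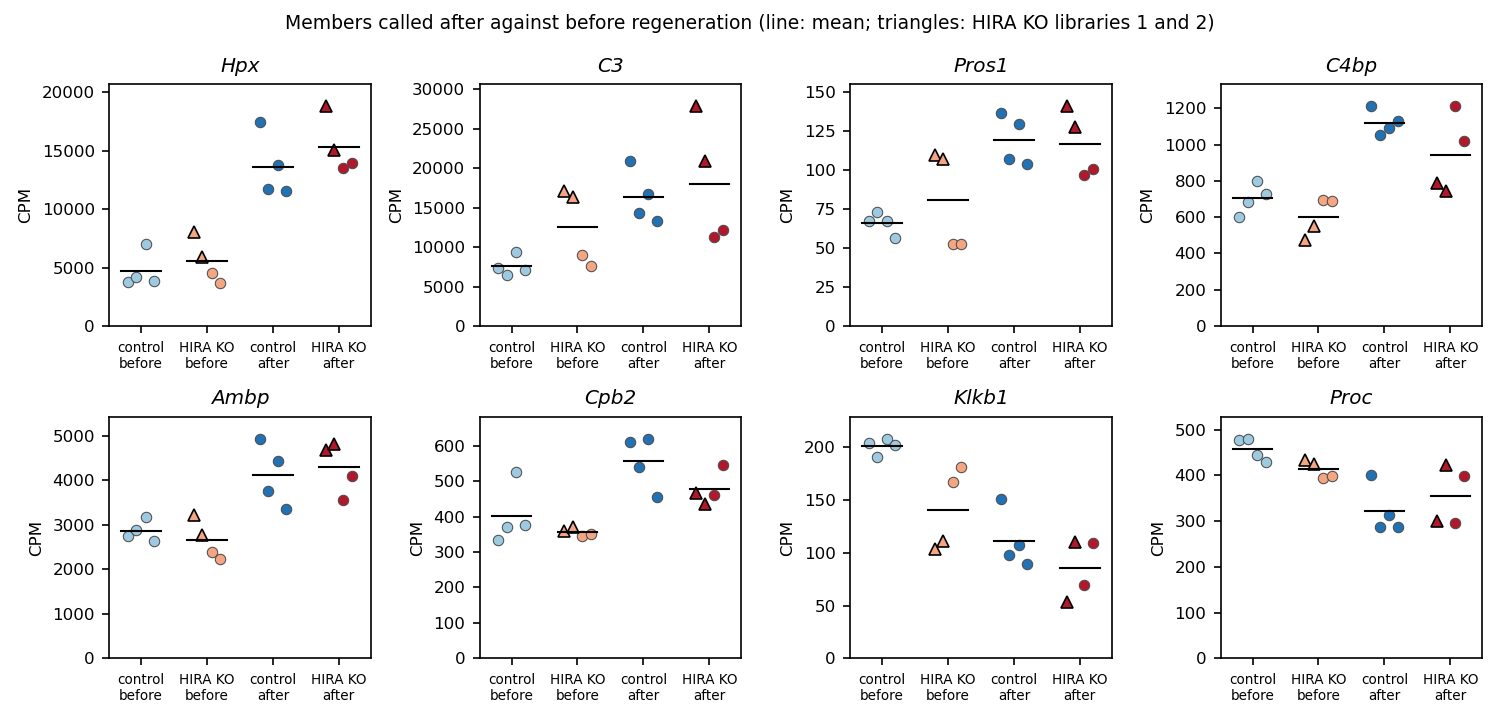
CPM in each library (points) with the group mean (line) for the 8 members called after against before regeneration in control, where triangles are HIRA KO libraries 1 and 2. Hpx lies between 3710 and 8030 CPM in all libraries before and between 11600 and 18800 CPM in all after.

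Whether regeneration altered the HIRA KO difference was tested as the interaction. By edgeR 0 of 41 members were called, against 0% of all genes, and 0 had an unadjusted p under 0.05, against 6.81% of all genes. DESeq2 also called 0 members. The smallest p belonged to F5 (log2 difference of differences -0.36 ± 0.181, p 0.0601, adjusted p 0.741), Cfb (-0.42 ± 0.214, p 0.0680, adjusted p 0.751) and Proc (0.29 ± 0.199, p 0.165, adjusted p 0.810). For fibrinogen the values were -0.39 ± 0.348 (Fga), -0.25 ± 0.375 (Fgb) and -0.42 ± 0.362 (Fgg), which became -0.18, -0.02 and -0.19 without the libraries that stood apart. The F5 value became -0.15. For C3 the value was -0.59 ± 0.425. An edgeR call in control and none in HIRA KO, as for C3, Pros1, Cpb2, Klkb1 and Proc, is thus not shown to be a difference between the genotypes. DESeq2 called Cpb2 and Klkb1 in HIRA KO too. With the column number as a replicate block, C3, Pros1, Cpb2 and Klkb1 were called in HIRA KO as well.

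The other genes of these pathways were followed in a list of 50 (coagulation inhibitors, vitamin K cycle, receptors, regulators and components made by other cells). In HIRA KO against control edgeR called 0 of 50 at either time and 0 in the interaction. At an unadjusted p under 0.05 there were 9, 17 and 2, against 13.2%, 15.8% and 6.81% of all genes. DESeq2 called Serpinf2, the main plasmin inhibitor, lower in HIRA KO at both times, Cfhr2 lower and Serpina5 higher before regeneration, Lman1 lower after it, and 0 in the interaction. Serpina5 was near the floor before regeneration, at 0.0497 to 0.484 CPM in control. In HIRA KO it was at 6.72 and 2.47 CPM in libraries 1 and 2, which stood apart, and at 0.408 and 0.626 CPM in libraries 3 and 4. With regeneration, 13 rose by edgeR (6.04% of all genes) and 3 fell (4.17%) in control, and 11 rose (6.48%) and 3 fell (5.53%) in HIRA KO. DESeq2 called 14 higher (7.79% of the 23018 genes) and 6 lower (6.47%) in control. In HIRA KO it called 11 higher (8.13%) and 7 lower (7.74%). The macrophage products C1qa (log2 0.93 ± 0.196 in control and 1.45 ± 0.198 in HIRA KO), C1qb (1.02 ± 0.208 and 1.56 ± 0.211) and C1qc (1.02 ± 0.182 and 1.58 ± 0.185), which form C1q, rose in both genotypes, as did properdin, Cfp (1.14 ± 0.184 and 1.66 ± 0.187). These rose beside the macrophage markers given above, of which the C1q genes are 3. F13a1, the catalytic subunit of factor XIII, rose by 2.85 ± 0.645 and 1.81 ± 0.551, while the liver-made subunit F13b had values of -0.07 ± 0.121 and -0.19 ± 0.121. F13a1 was near the floor, at 0.114 to 0.249 CPM before and 1.04 to 1.82 CPM after in control. In HIRA KO its libraries overlapped, at 0.204 to 1.38 CPM before and 1.11 to 5.85 CPM after. Of the genes that fell, Cd59a, an inhibitor of the membrane attack complex, did so in both genotypes (-0.88 ± 0.143 and -0.55 ± 0.142), and the protein Z-dependent inhibitor Serpina10 rose in both (0.67 ± 0.144 and 0.62 ± 0.144).

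Of 10 acute phase genes, 5 rose with regeneration in each genotype, where 6.04% of all genes rose in control and 6.48% in HIRA KO. In HIRA KO against control edgeR called 0 of them, with 6 before and 5 after regeneration at an unadjusted p under 0.05. Over all genes these shares were 13.2% and 15.8%. DESeq2 called 0 of the acute phase genes before and 1, Crp, after regeneration. Orm2 rose by 4.55 ± 0.698 in control and 4.27 ± 0.694 in HIRA KO, and Hp (haptoglobin, the hemoglobin carrier) by 1.23 ± 0.358 in each. Control library 3 before regeneration was high for several of these genes. In it Saa1 was at 1400 CPM and Lcn2 at 118 CPM, against 40.1 to 106 and 4.36 to 7.81 CPM in the other controls at that time. Saa3 and Crp were not highest in it. The part of this library in the acute phase counts was not tested. Of 10 regulators and signalling genes (C/EBP factors, the interleukin 6 receptor and STAT3 among them), 2 fell in control, Cebpa and Cebpd (-0.91 ± 0.214 and -0.70 ± 0.219), and 1 in HIRA KO, Il6st (-0.55 ± 0.147). Over all genes 4.17% fell in control and 5.53% in HIRA KO. In HIRA KO against control edgeR called 0 of the 10 at either time, with 0 before and 2 after regeneration at an unadjusted p under 0.05, and DESeq2 called 0 before and 1, Il6st, lower after regeneration.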

How the data were processed

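The authors trimmed reads where needed and aligned them to mm10 with STAR. The study's methods name HOMER for gene counts, while the submitters' processing notes list STAR, HTSeq and Cufflinks. The authors deposited read counts per gene ID in each library and a separate FPKM table (fragments scaled by transcript length and depth), whose making is not given in the sources used here, nor are the annotation release and strand setting. Of 55421 gene IDs, 54673 were identical to GENCODE M21 (GRCm38), from which coordinates were taken.

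Genes with at least 10 counts over the 16 libraries (23018) were fitted with edgeR (version 4.0.16, R version 4.3.3), TMM scaling and its robust quasi-likelihood test, with 4 group means in 1 model. The p-values of all these genes were adjusted together (Benjamini-Hochberg), and adjusted values under 0.05 count as calls. SE was derived from the log2 fold change and F (its size over the root of F). DESeq2 (version 1.42.0) and limma (version 3.58.1) on log2(FPKM + 1) were alternatives. Further ones were RLE scaling, scaling without the 100 most abundant genes, other filters, fits of only the groups compared and an absolute log2 fold change over 1. Leaving out libraries and a replicate block were also tried. The authors used an earlier version of DESeq2 and also required an absolute log2 fold change over 1, which the DESeq2 calls here do not. The functions were tested on simulated data. The pseudocount of 1 understates changes of low genes. An empty FPKM cell was read as 0, but 183 genes with an empty cell beside 10 or more counts in a library were left out of FPKM work, C2 and Cfb among them. Within groups, the chi-square of counts between library pairs was 12.4 to 135 per degree of freedom, so no pair was treated as 1 library.

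The members, roles, pathway lists, marker lists of 9 cell types and tests were chosen with earlier results of these data known. Values per library were given for the 3 higher and 3 lower members with the smallest p in each HIRA KO comparison, the 5 called members with the largest rise and the 5 with the largest fall in each regeneration comparison, the fibrinogen genes, and the 3 smallest p in the interaction. Others named were chosen after their values were seen. Columns could not be tied to single samples of the labels, so each served as a replicate of its group. Replicates were separate mice per the series' design text. Of the columns of per-sample values, 0 were left out. A gene of the regulator list and a promoter motif are not reported here.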

Additional observations from a re-analysis of the deposited data

Results flagged for a closer look

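In each group of 4 libraries, the highest and the lowest CPM of each member were compared with the other 3 (Dixon's ratio). Of 164 groups examined, 5 held a library far from the others, where chance gives about 1 in 20.

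Kng1, which encodes kininogen, was at 2620 CPM in HIRA KO library 2 after regeneration, with the next at 2020 CPM. Hrg, the histidine-rich glycoprotein, was at 1340 CPM in control library 1 after regeneration, with the next at 923 CPM. Plg was at 2890 CPM in control library 3 before regeneration, with the next at 2440 CPM. In the same library, where several acute phase genes were also high, Hpx was at 7010 CPM, with the next at 4160 CPM. C8a was at 604 CPM in control library 4 after regeneration, below the next at 980 CPM.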

How the results depend on the processing

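In HIRA KO against control before regeneration and in the interaction, 0 members were called under every alternative run. After regeneration DESeq2 called 6 members and the fits without 1 library 0 to 1 (C8a, without HIRA KO library 4). After against before in control, 8 calls (10.2% of all genes) became 10 with DESeq2 (14.3%), 9 with filterByExpr (18%) and 9 with limma on FPKM (8.28%). They became 10 without the libraries that stood apart (17.9%), 2 at an absolute log2 fold change over 1 (5.03%), and 1 to 6 without 1 library. In HIRA KO, 3 calls (12% of all genes) became 7 with DESeq2 (15.9%), 5 with filterByExpr (20.5%), 5 with limma on FPKM (11.2%), 1 at an absolute log2 fold change over 1 (5.3%), 5 without the libraries that stood apart (10.3%), and 2 to 5 without 1 library. The DESeq2 shares here are of all 23018 genes, and are higher over the genes it gave an adjusted p (17542 in HIRA KO). Among the results named by rule, signs turned for Pros1 before regeneration (-0.32) and Ahsg after it (-0.15) in HIRA KO against control without the libraries that stood apart (8 of 41 members before and 10 after), and, after against before in HIRA KO, for Fga and Fgg without library 3 after (0.00 each) or library 4 after (-0.04 and -0.08), where fits without 1 library ran up to 0.32 for Fga and 0.30 for Fgg. The cause was not tested, beyond fewer samples. C2 and Cfb gave no value with FPKM.

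Over all genes, edgeR called 9 in HIRA KO against control before regeneration and 113 after it, 2350 and 2764 with regeneration in control and HIRA KO, and 0 in the interaction. DESeq2 called 375 and 910, and 67 in the interaction. Before regeneration, the count was 36 with no filter, 4 with limma, 5 without the libraries that stood apart and 1 to 33 without 1 library. After it, the count was 228 with filterByExpr, 0 with only the groups compared, 61 with limma, 44 at an absolute log2 fold change over 1, 15 without the libraries that stood apart and 5 to 452 without 1 library. With regeneration, 1158 and 1220 passed an absolute log2 fold change over 1, 1431 were called in HIRA KO with only the groups compared, 3858 in control without the libraries that stood apart, and 1530 to 2357 and 1678 to 2771 without 1 library. In the interaction, no filter gave 1, the replicate block 9 and fits without 1 library 0 to 7.

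Before and after samples came from the same mice, but the columns do not name the mouse. Libraries of 1 genotype that share a running number had correlated deviations from their group means (r 0.0805 to 0.587 over 8 pairs, 7 over 0.1), and 7 of 8 before and 8 of 8 after libraries correlated best with their own number, which is a hint from the data and not the design. In HIRA KO, libraries 1 and 2 also correlated with each other across time (0.335 and 0.378), as did 3 and 4 (0.516 and 0.426). Between libraries 1 or 2 and libraries 3 or 4, r was -0.574 to -0.373. In HIRA KO the correlation thus also followed this division, and does not single out the mouse. With the running number as a replicate block, 10 members were called in control (15.3% of all genes), 8 in HIRA KO (17.8%) and 0 in the interaction. Those gained were Cfb and Hc in control and C3, Cpb2, Klkb1, Masp2 and Pros1 in HIRA KO. HIRA KO and control have no such pairing. The tables give no sequencing batch or deletion approach, so neither was fitted.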

Other observations

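Markers of other cell types were summed in each library. Cholangiocyte markers (6 genes) were at 47.8 to 72.4 CPM in control and 57.7 to 143 CPM in HIRA KO before regeneration, and at 71.4 to 114 and 81.1 to 131 CPM after it. Endothelial markers (6 genes) were at 223 to 280 and 196 to 284 CPM before, and at 137 to 226 and 162 to 185 CPM after. The remaining lists were low, at most 4.71 CPM for T and NK cells, 8.78 CPM for B cells, 15.8 CPM for neutrophils and 9.96 CPM for megakaryocytes and platelets. Their part in the members' values was not tested.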
